A study of Mus musculus with 70 samples.

Results

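Among the 22835 genes in the pituitary RNA-seq table, 10 genes are described here: Tyrp1, Anxa10, Ptpn5, Gc, Th, Rln3, Hs6st2, Klhl1, Cited1 and Olfr282. They were chosen by name because their transcript levels were high only in hypothyroid wild-type mice, and fell to a low level both when T3 was given and when the thyroid hormone receptor TRβ, the product of Thrb, was missing. All 10 were found, and where the table lists more than 1 RefSeq transcript of a gene, the transcript with the highest mean level was used. Since the level in hypothyroid wild-type libraries chose the genes, every difference from that group is given below as a description, with no test.

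The pituitary glands for RNA-seq came from male C57BL/6J mice aged 2-4 months. Hypothyroid mice drank water containing methimazole (MMI, 0.05%) with potassium perchlorate (1%) over 4 or 5 weeks, and hyperthyroid mice received the same water with 0.5 µg/ml T3 added for the final week, so that both conditions share the blockade of the thyroid gland. RNA-seq libraries were made from whole pituitaries, each a pool of 3 glands, in 4 groups: hypothyroid wild type (4 libraries), hyperthyroid wild type (4), hypothyroid Thrb-KO (5) and hyperthyroid Thrb-KO (5). Receptor binding came from untreated mice carrying the ThrbHAB/HAB; Rosa26BirA/BirA genotype, in which TRβ bears a tag that the BirA ligase biotinylates, set against Rosa26BirA/BirA controls (ChAP-seq, 3 libraries per genotype, each of about 12 pituitaries or the cortex of 2 mice). The untreated control libraries are titled BirA but carry the tagged genotype in their genotype label, and they are taken here as controls, as titled. Every sample is labelled C57BL/6J, whereas the methods place the tagged and BirA mice on mixed 129, C57BL/6J and FVB/N backgrounds and the GFP-labelled mice on C57BL/6J and 129/Sv. Open chromatin came from GFP-labelled nuclei (Rosa26Sun1-GFP; Thrb2-Cre) of hypothyroid and hyperthyroid mice (ATAC-seq, 4 libraries per condition), a label driven by the Thrb locus and therefore limited to pituitary cells that have used it. The Thrb-KO mice lack TRβ in all tissues from conception, so an effect of the receptor in the adult gland cannot be told apart from one in development.

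T3 acts through nuclear receptors encoded by Thrb and Thra that bind DNA as dimers, often with the retinoid X receptor, at direct repeats of the hexamer AGGTCA separated by a 4-base spacer (DR4). In thyrotrophs, the pituitary cells that secrete thyroid-stimulating hormone (TSH), T3 suppresses the TSH subunit genes Tshb and Cga, and hypothyroidism releases them. Mice that lack TRβ are known for raised TSH in spite of raised thyroid hormone, because the feedback on the thyrotroph is weakened.

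Library depth ranged from 21453548 to 55273749 reads (median 34673225), so that 3 reads, the limit below which a level is not told from 0, corresponded to 0.0543-0.140 CPM, the reads of a transcript scaled to a library total of 1000000. CPM are not divided by transcript length, so levels are compared between groups and not between genes. Thrb read 239-297 CPM in hypothyroid wild type, 72.4-124 in hyperthyroid wild type, 239-295 in hypothyroid Thrb-KO and 228-301 in hyperthyroid Thrb-KO libraries. The Thrb count therefore did not fall in the libraries labelled Thrb-KO. Reads from outside the deleted part of the gene check nothing, and which exons they came from is not held in the table, so the genotype label was not checked by it. Thra, which encodes the other T3 receptor, averaged 76.4 CPM in hypothyroid wild type and 87.1 CPM in hypothyroid Thrb-KO (limma, adjusted p = 0.28).

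The pattern was steep and shared. In each of the 10 genes all 4 hypothyroid wild-type libraries lay above all 14 other libraries, a separation that 3.25% of the 14472 genes tested also had and that the rule itself fixed. The lowest hypothyroid wild-type library exceeded the highest other library by 3.07-fold (Klhl1) to 26.1-fold (Anxa10), and of the 21 tested genes with a gap of at least 3-fold (0.145% of 14472), 10 were these genes. As a percent of the hypothyroid wild-type mean, the means ranged from 0.606% (Tyrp1) to 14.4% (Hs6st2) in hyperthyroid wild type, with a median of 2.52%. They ranged from 1.31% (Rln3) to 12.8% (Klhl1) in hypothyroid Thrb-KO (median 6.96%) and from 0.120% (Anxa10) to 12.1% (Cited1) in hyperthyroid Thrb-KO (median 1.14%). All 10 passed the filter on low values (above 1 CPM in at least 4 libraries), Anxa10 and Olfr282 through the 4 hypothyroid wild-type libraries alone. Tyrp1, Gc, Rln3 and Klhl1 exceeded 1 CPM in 5 libraries, and would also have failed the filter without the hypothyroid wild-type libraries. Ptpn5 exceeded it in 8, Th and Cited1 in 11 and Hs6st2 in all 18. Calls of Tyrp1, Gc, Rln3 and Anxa10 below therefore rest on a filter passed through the group that chose them. In whole glands, fewer cells of a type and less RNA per cell cannot be told apart. Over all 14472 genes, limma on log2(CPM + 1) called 10.4% with T3 in wild type (4.28% higher and 6.14% lower, at an adjusted p under 0.05 and 1.5-fold), and 3.54% between genotypes in hypothyroid mice (1.18% higher and 2.36% lower in Thrb-KO). These shares are the background for the counts of related genes given with each member.

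**Figure D1:**
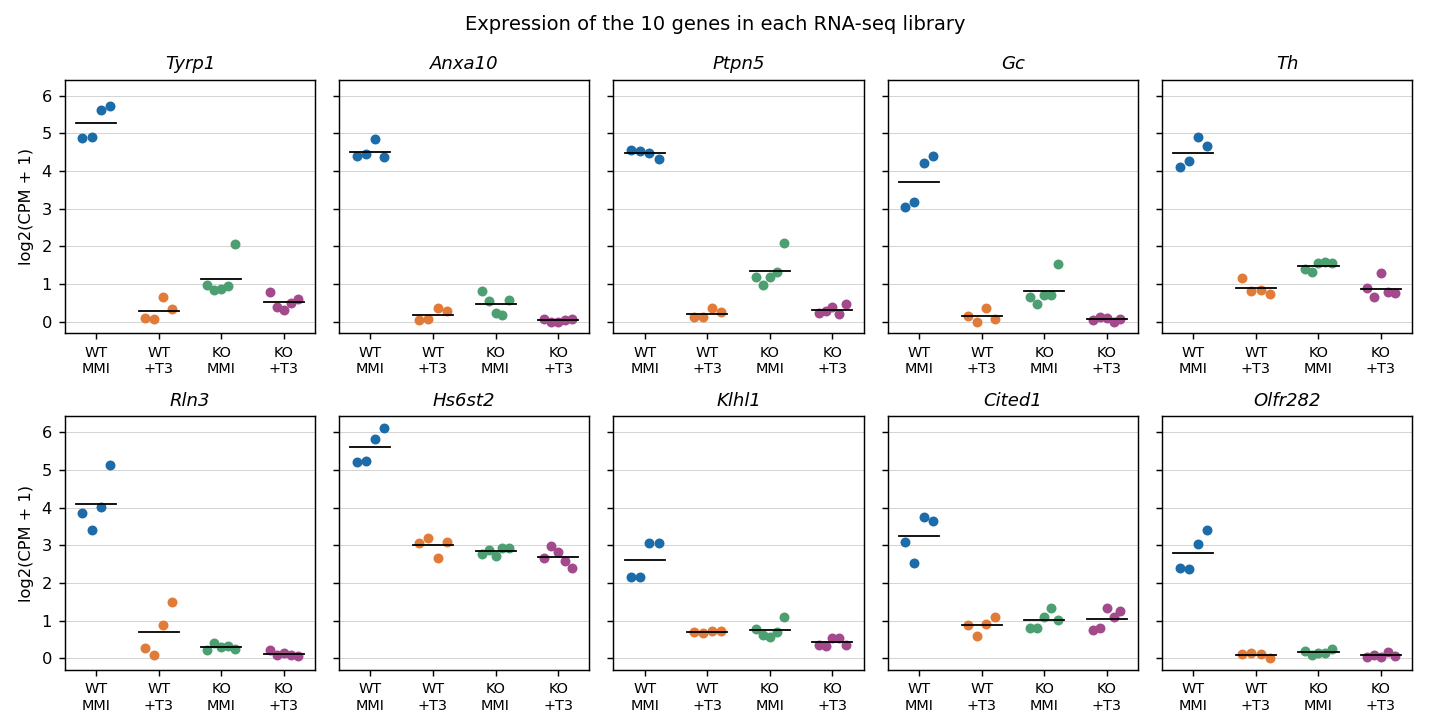
Level of each gene in each RNA-seq library on the log2(CPM + 1) scale, by group (WT, wild type; KO, Thrb-KO; MMI, hypothyroid; +T3, hyperthyroid), with a point per library and a line at the group mean. The 4 hypothyroid wild-type points sit above all 14 others in each of the 10 panels.

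Tyrp1 and Th encode enzymes best known from pigment cells and from catecholamine neurons. Tyrp1, tyrosinase-related protein 1 of the melanin pathway (chr4:80480027-80497623, plus strand, mouse build mm9), read 28.5, 28.7, 47.7 and 52.3 CPM in the 4 hypothyroid wild-type libraries. It read 0.0675, 0.055, 0.568 and 0.262 CPM in hyperthyroid wild type. In hypothyroid Thrb-KO it read 0.957, 0.785, 0.814, 0.92 and 3.17 CPM, and in hyperthyroid Thrb-KO 0.734, 0.306, 0.238, 0.41 and 0.513 CPM. The groups therefore fell into 3 tiers, with hypothyroid wild type far above the rest, hypothyroid Thrb-KO next, and both T3-treated groups overlapping at the bottom. On the log2(CPM + 1) scale the difference was -4.99 ± 0.25 (SE) with T3 in wild type and -4.15 ± 0.24 between genotypes in hypothyroid mice. The 250 bases before the Tyrp1 start, shown because they hold the receptor hexamer without a DR4, contain AGGTCA on the minus strand (TGACCT as printed) and the GATA factor motif AGATAA, both in capitals (RefSeq, GRCm38.p6, chr4:80833963-80834212, plus strand).
Tyrp1 promoter: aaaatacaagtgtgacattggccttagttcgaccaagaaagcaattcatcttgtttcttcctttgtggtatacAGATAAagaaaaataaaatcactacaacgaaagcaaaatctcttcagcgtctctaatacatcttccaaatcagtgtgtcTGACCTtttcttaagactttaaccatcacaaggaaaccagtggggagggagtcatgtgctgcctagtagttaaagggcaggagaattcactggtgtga

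The other melanin genes did not share this pattern. Of the melanin synthesis list, 3 further genes passed the filter. With T3 in wild type and between genotypes in hypothyroid mice, limma called 0 of them, edgeR and DESeq2 called 0, and 0 had an unadjusted p under 0.05. Pmel, a melanosome structural protein, averaged 2.88 CPM in hypothyroid wild type and 2.92 CPM in hypothyroid Thrb-KO (adjusted p = 0.95). Mitf, the pigment cell transcription factor, averaged 13.3 and 11.8 CPM. The 5 melanocyte markers together summed to 2.54-4.53 CPM in hypothyroid wild type, 1.98-3.05 in hyperthyroid wild type, 3.04-4.16 in hypothyroid Thrb-KO and 2.92-4.38 in hyperthyroid Thrb-KO. Tyr, Dct and Mlana, the defining markers, were at 0 in all 4 hypothyroid wild-type libraries, where Tyrp1 was highest.

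Th, tyrosine hydroxylase, the rate-limiting enzyme of dopamine synthesis (chr7:150078657-150117033, minus strand, mm9), read 16.1, 18.2, 28.6 and 24.5 CPM in hypothyroid wild type and 1.24, 0.769, 0.77 and 0.654 CPM in hyperthyroid wild type. It read 1.64, 1.51, 1.95, 2.0 and 1.92 CPM in hypothyroid Thrb-KO and 0.869, 0.557, 1.43, 0.725 and 0.699 CPM in hyperthyroid Thrb-KO. Hypothyroid Thrb-KO libraries thus formed a narrow middle tier that overlapped neither T3-treated group. On the log2 scale the difference was -3.60 ± 0.16 with T3 in wild type and -3.00 ± 0.15 between hypothyroid genotypes. The Th promoter is shown because it is the 1 member promoter with the palindromic cAMP response element TGACGTCA, which begins 45 bases before the start and is found in 1.55% of 32851 RefSeq promoters (GRCm38.p6, chr7:142899996-142900245, printed on the minus strand, with that element and the AP-1 motif TGATTCA in capitals).
Th promoter: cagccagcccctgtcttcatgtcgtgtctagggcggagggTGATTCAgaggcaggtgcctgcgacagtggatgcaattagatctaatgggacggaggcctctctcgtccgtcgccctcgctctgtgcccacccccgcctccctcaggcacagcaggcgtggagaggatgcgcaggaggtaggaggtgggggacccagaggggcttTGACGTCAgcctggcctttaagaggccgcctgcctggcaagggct

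Of the other genes of catecholamine synthesis and handling, 12 were tested. Between genotypes in hypothyroid mice limma, edgeR and DESeq2 each called 0 of them, with an unadjusted p under 0.05 in limma for 1. Maob, which degrades dopamine, fell with T3 in wild type from 20.8 to 13.6 CPM (log2 difference -0.59, adjusted p = 0.013), a call that edgeR and DESeq2 did not make. Nr4a2, an orphan nuclear receptor that drives Th in dopamine neurons, was lower in hypothyroid Thrb-KO than in hyperthyroid wild type (log2 difference -1.67, adjusted p = 0.022). Its spread was wide, with 37.45 ± 24.3 CPM (SD, n = 5) and 112.7 ± 60.3 CPM (n = 4) in these groups. They differ in both genotype and T3, and 9.18% of all genes were called between them. Ddc, which makes dopamine from the product of Th, averaged 2.21 CPM in hypothyroid wild type and 1.97 CPM in hypothyroid Thrb-KO (adjusted p = 0.70). Dbh and Pnmt, which carry catecholamines on to noradrenaline and adrenaline, averaged 0.0416 and 0.116 CPM in hypothyroid wild type. Slc6a3, the dopamine transporter, did not pass the filter and is named here after its values were seen: it averaged 1.59 CPM in hypothyroid wild type, 0.0393 in hyperthyroid wild type, 0.190 in hypothyroid Thrb-KO and 0.0739 in hyperthyroid Thrb-KO.

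Rln3 and Gc encode secreted proteins. Rln3, relaxin-3, a peptide of the insulin superfamily made mainly by brainstem neurons (chr8:86566966-86568878, minus strand, mm9), read 13.6, 9.53, 15.1 and 34.1 CPM in hypothyroid wild type. It read 0.202, 0.055, 0.852 and 1.83 CPM in hyperthyroid wild type, 0.171, 0.327, 0.235, 0.263 and 0.192 CPM in hypothyroid Thrb-KO, and 0.163, 0.0557, 0.0953, 0.0631 and 0.0466 CPM in hyperthyroid Thrb-KO. Rln3 and Hs6st2 were the 2 genes with a higher mean in hyperthyroid wild type (0.735 CPM for Rln3) than in hypothyroid Thrb-KO (0.238 CPM), though the Rln3 libraries overlapped and limma did not call the difference (-0.38 on the log2 scale, adjusted p = 0.38). Its spread in hypothyroid wild type was also the widest of the set, a coefficient of variation of 60.5% against 7.22% for Ptpn5. The log2 difference was -3.42 ± 0.29 with T3 in wild type and -3.80 ± 0.28 between genotypes in hypothyroid mice. The Rln3 promoter is shown because it holds AGGTCA at 2 places, 115 and 71 bases before the start on the same strand, with AGATAA between and beside them (TTATCT on the opposite strand), all in capitals (GRCm38.p6, chr8:84044980-84045229, printed on the minus strand).
Rln3 promoter: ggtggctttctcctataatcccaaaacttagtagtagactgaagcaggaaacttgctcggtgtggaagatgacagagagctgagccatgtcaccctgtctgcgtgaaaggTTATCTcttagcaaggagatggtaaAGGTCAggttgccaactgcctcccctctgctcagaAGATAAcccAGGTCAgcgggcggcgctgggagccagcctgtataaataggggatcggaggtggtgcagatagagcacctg

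Of the relaxin family and its receptors only Insl3 and Insl6 were also tested. Insl3 averaged 0.950 CPM in hypothyroid wild type and 1.09 CPM in hypothyroid Thrb-KO (adjusted p = 0.74), and Insl6 averaged 1.40 and 1.22 CPM (adjusted p = 0.78). Rxfp3, the receptor for relaxin-3, averaged 0.141 CPM in hypothyroid wild type and did not pass the filter.

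Gc, the vitamin D-binding protein, a plasma protein of the albumin family made mainly by liver (chr5:89846549-89886790, minus strand, mm9), read 7.16, 7.99, 17.5 and 20.2 CPM in hypothyroid wild type. It read 0.112, 0, 0.284 and 0.0524 CPM in hyperthyroid wild type, 0.581, 0.393, 0.615, 0.624 and 1.89 CPM in hypothyroid Thrb-KO, and 0.0272, 0.0835, 0.0715, 0 and 0.0466 CPM in hyperthyroid Thrb-KO. Gc therefore had the same 3 tiers as Tyrp1, with the T3-treated libraries of both genotypes at or near the 3-read limit. With T3 in wild type the log2 difference was -3.55 ± 0.26, and between genotypes in hypothyroid mice it was -2.89 ± 0.24. Alb, the defining liver marker, read at most 0.0363 CPM in any library, and the 3 liver markers summed to 8.69-18.0 CPM in hypothyroid wild type, 1.32-4.83 in hyperthyroid wild type, 6.66-8.58 in hypothyroid Thrb-KO and 1.33-2.20 in hyperthyroid Thrb-KO. Nearly all of that sum was Ttr, transthyretin, a thyroid hormone carrier of plasma that brain choroid plexus also makes (8.25-16.8, 1.21-3.61, 6.15-8.12 and 1.20-1.64 CPM). The part of Ttr-expressing cells in the Gc result was not tested.

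The vitamin D receptor gene Vdr moved differently from Gc. Vdr averaged 15.8 ± 0.617 CPM (SD, n = 4) in hypothyroid wild type and 43.1 ± 14.0 in hyperthyroid wild type, but only 2.05 ± 0.635 (n = 5) in hypothyroid and 2.83 ± 0.559 in hyperthyroid Thrb-KO. It rose with T3 in wild type (log2 difference 1.34, adjusted p = 5.0e-05) and was lower in Thrb-KO than in wild type among hypothyroid mice (log2 difference -2.49, adjusted p = 5.4e-08). Of the 6 other tested genes of vitamin D handling and the albumin family, Vdr was the 1 called between genotypes in hypothyroid mice. Cyp27a1, a mitochondrial hydroxylase of vitamin D and bile acids, was called in 1 contrast, lower in hypothyroid Thrb-KO than in hyperthyroid wild type (log2 difference -0.72, adjusted p = 0.024).

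Ptpn5 and Anxa10 were the steadiest of the set among the hypothyroid wild-type libraries. Ptpn5, also called STEP, a tyrosine phosphatase of striatal neurons that dephosphorylates ERK (chr7:54333168-54389054, minus strand, mm9), read 22.3, 22.0, 21.4 and 19.0 CPM in hypothyroid wild type and 0.09, 0.0824, 0.284 and 0.183 CPM in hyperthyroid wild type. It read 1.26, 0.949, 1.25, 1.48 and 3.23 CPM in hypothyroid Thrb-KO and 0.163, 0.223, 0.31, 0.158 and 0.373 CPM in hyperthyroid Thrb-KO. The 5 hypothyroid Thrb-KO libraries lay above all 9 T3-treated libraries. On the log2 scale the difference was -4.26 ± 0.17 with T3 in wild type and -3.13 ± 0.16 between hypothyroid genotypes. A non-coding transcript, Gm14377, overlaps Ptpn5 on the opposite strand, and no statement on strand was found for the library kits, so reads of the pair cannot be told apart.

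Anxa10, an annexin known from gastric epithelium (chr8:64535839-64601915, minus strand, mm9), read 20.1, 20.8, 27.7 and 19.6 CPM in hypothyroid wild type and 0.0225, 0.055, 0.284 and 0.209 CPM in hyperthyroid wild type. It read 0.752, 0.458, 0.163, 0.131 and 0.48 CPM in hypothyroid Thrb-KO, and in hyperthyroid Thrb-KO 0.0543, 0, 0, 0.0315 and 0.0466 CPM, or 4 reads in all 5 libraries together. Only its hypothyroid wild-type level stood clear of the rest, as its hypothyroid Thrb-KO and hyperthyroid wild-type libraries overlapped. The log2 difference was -4.33 ± 0.13 with T3 in wild type and -4.05 ± 0.13 between genotypes in hypothyroid mice. The Anxa10 promoter is shown because it holds the AP-1 motif TGANTCA at 2 places, 180 and 16 bases before the start, as TGAGTCA in capitals (GRCm38.p6, chr8:62123194-62123443, printed on the minus strand). It is also 1 of 2 member promoters with TATAA between 45 and 16 bases before the start, a run that 3.89% of all RefSeq promoters hold, the other being that of Rln3.
Anxa10 promoter: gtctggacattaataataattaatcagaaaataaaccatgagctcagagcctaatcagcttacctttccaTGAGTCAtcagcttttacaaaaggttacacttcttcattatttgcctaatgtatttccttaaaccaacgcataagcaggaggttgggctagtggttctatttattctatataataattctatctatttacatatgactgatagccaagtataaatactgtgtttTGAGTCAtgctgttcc

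Among related genes, 9 other annexins were tested. Between genotypes in hypothyroid mice limma, edgeR and DESeq2 each called 0 of them, and 0 had an unadjusted p under 0.05. Anxa1, an anti-inflammatory annexin, was higher in hyperthyroid Thrb-KO than in hyperthyroid wild type (log2 difference 0.72, adjusted p = 0.0061). Of 12 other phosphatases that act on ERK or related MAP kinases, Dusp4, a nuclear MAP kinase phosphatase, came closest to the pattern of Ptpn5. Dusp4 averaged 8.65 ± 0.624 CPM (SD, n = 4) in hypothyroid wild type, 1.79 ± 0.700 in hyperthyroid wild type, 3.44 ± 1.14 (n = 5) in hypothyroid Thrb-KO and 1.59 ± 0.248 in hyperthyroid Thrb-KO. It fell with T3 in wild type (log2 difference -1.83, adjusted p = 1.0e-06) and less in Thrb-KO (-0.75, adjusted p = 0.022). The difference between the responses was 1.09 (adjusted p = 0.014). In that contrast 2.94% of all genes were called higher, and of these 12 edgeR called 0 and DESeq2 called 2. Ptprr, Dusp2 and Dusp14 were called in other contrasts, with log2 differences between hypothyroid Thrb-KO and hyperthyroid wild type of 0.70, 0.74 and -0.65 (adjusted p = 8.6e-04, 0.0063 and 0.0055).

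Hs6st2 was the 1 gene of the set above 1 CPM in every library. Hs6st2, heparan sulfate 6-O-sulfotransferase 2, which adds sulfate to the heparan chains that bind growth factors (chrX:48740389-49035033, minus strand, mm9), read 36.0, 36.6, 56.0 and 68.3 CPM in hypothyroid wild type. It read 7.33, 8.19, 5.35 and 7.49 CPM in hyperthyroid wild type, 5.78, 6.38, 5.52, 6.67 and 6.65 CPM in hypothyroid Thrb-KO, and 5.27, 6.9, 6.08, 4.98 and 4.29 CPM in hyperthyroid Thrb-KO. Every library held at least 92 reads, and the 3 lower groups overlapped one another. With T3 in wild type the log2 difference was -2.59 ± 0.18, and between genotypes in hypothyroid mice it was -2.75 ± 0.17. Its close relatives Hs6st1 and Hs6st3 averaged 53.9 and 1.63 CPM in hypothyroid wild type and 53.2 and 1.69 CPM in hypothyroid Thrb-KO (adjusted p = 0.94 and 0.92).

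Of 19 other tested genes that modify heparan sulfate, 2 fell and 1 rose with T3 in wild type, and 1 was lower and 1 higher in Thrb-KO than in wild type among hypothyroid mice. The gene lower in both was Hs3st2, a 3-O-sulfotransferase of brain, which averaged 4.38 ± 2.19 CPM (SD, n = 4) in hypothyroid wild type, 0.146 ± 0.0784 in hyperthyroid wild type, 0.285 ± 0.162 (n = 5) in hypothyroid Thrb-KO and 0.214 ± 0.0443 in hyperthyroid Thrb-KO. Its log2 differences were -2.13 with T3 in wild type (adjusted p = 2.9e-07) and -1.98 between genotypes in hypothyroid mice (adjusted p = 1.5e-06). Ndst3, an N-deacetylase and N-sulfotransferase, fell with T3 in wild type (log2 difference -0.71, adjusted p = 2.7e-04) but was not lower in hypothyroid Thrb-KO (41.4 against 29.0 CPM). Sulf2, which removes 6-O-sulfate, rose with T3 in wild type from 31.7 to 49.6 CPM (log2 difference 0.63, adjusted p = 0.0047), and Hs3st1 was higher in hypothyroid Thrb-KO than in hypothyroid wild type (log2 difference 0.62, adjusted p = 1.9e-04). The nearest tested gene on the right of Hs6st2, 371165 bp away, is Gpc4, a glypican whose chains carry heparan sulfate. Gpc4 also fell with T3 in wild type, from 295.7 ± 23.5 to 89.7 ± 13.3 CPM (SD, n = 4; log2 difference -1.72, adjusted p = 2.5e-10), but averaged 239.6 ± 14.6 CPM (n = 5) in hypothyroid Thrb-KO (log2 difference from wild type -0.30, adjusted p = 0.051).

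Cited1, Klhl1 and Olfr282 had the fewest reads of the set in hypothyroid wild type. Cited1, a transcriptional coregulator that binds CBP and p300 (chrX:99442720-99447520, minus strand, mm9), read 7.51, 4.75, 12.5 and 11.5 CPM in hypothyroid wild type, against 0.495-1.15 in hyperthyroid wild type, 0.752-1.54 in hypothyroid Thrb-KO and 0.679-1.53 in hyperthyroid Thrb-KO. Its 3 lower groups overlapped fully. On the log2 scale the difference was -2.38 ± 0.22 with T3 in wild type and -2.24 ± 0.21 between hypothyroid genotypes. Of 6 tested CITED genes and partners, only Cited4 was called, higher with T3 in wild type (2.77 to 5.09 CPM, log2 difference 0.65, adjusted p = 0.0067).

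Klhl1, an actin-binding Kelch-like protein of neurons (chr14:96504478-96918321, minus strand, mm9), read 3.45, 3.44, 7.32 and 7.32 CPM in hypothyroid wild type, 0.605-0.654 in hyperthyroid wild type, 0.47-1.12 in hypothyroid Thrb-KO and 0.25-0.453 in hyperthyroid Thrb-KO. Its hyperthyroid Thrb-KO libraries lay below all libraries of the other groups. The log2 difference was -1.90 ± 0.18 with T3 in wild type and -1.86 ± 0.17 between genotypes in hypothyroid mice. Of 29 other tested Kelch-like genes, 2 rose and 2 fell with T3 in wild type. Klhl33 and Klhl30 rose from 2.76 to 19.0 CPM and from 0.382 to 3.90 CPM (log2 differences 2.37 and 1.81, adjusted p = 1.4e-09 and 1.9e-08), while Klhl13 and Klhl3, which are substrate adaptors of cullin ubiquitin ligases, fell (log2 differences -1.05 and -0.60, adjusted p = 6.4e-07 and 0.010). Between genotypes in hypothyroid mice Klhl33 was the 1 called, higher in Thrb-KO (5.39 against 2.76 CPM, log2 difference 0.76, adjusted p = 0.0021).

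Olfr282, an olfactory receptor gene of a single annotated exon (chr15:98267901-98268828, plus strand, mm9), read 4.25, 4.2, 7.23 and 9.57 CPM in hypothyroid wild type, or 144 to 315 reads per library. It read 0.09, 0.11, 0.0811 and 0 CPM in hyperthyroid wild type, 0.137, 0.0655, 0.109, 0.0986 and 0.192 CPM in hypothyroid Thrb-KO, and 0.0272, 0.0557, 0.0238, 0.126 and 0.0466 CPM in hyperthyroid Thrb-KO. The lower 3 groups overlapped and held at most 6 reads in any library. With T3 in wild type the log2 difference was -2.71 ± 0.16, and between genotypes in hypothyroid mice it was -2.64 ± 0.15. Of 1123 olfactory receptor genes in the table, 3 passed the filter on low values and 361 were at 0 in all 18 libraries. Of the 2 that passed beside Olfr282, limma and edgeR called 0 with T3 in wild type, where 1 had an unadjusted p under 0.05 and DESeq2 called 1. Between genotypes in hypothyroid mice limma, edgeR and DESeq2 called 0, and 0 had an unadjusted p under 0.05.

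The 10 genes were then set beside the thyrotroph genes that T3 is known to suppress. In hypothyroid Thrb-KO the mean of Tshb, the TSH beta subunit, was 84.5% of its mean in hypothyroid wild type, and that of Cga, the shared alpha subunit, was 73.9%. Trhr, the receptor for the hypothalamic releasing hormone, and Dio2, the deiodinase that makes T3 locally, stood at 38.6% and 64.5% and were lower in Thrb-KO (log2 differences -1.35 and -0.63, limma adjusted p = 4.6e-07 and 0.0022), whereas Tshb and Cga were not called (adjusted p = 0.90 and 0.16). The 10 genes stood at 12.8% or less there, a contrast with the thyrotroph genes that the choice of the 10 fixed. With T3 in wild type the same 4 genes fell to 3.46-16.7% of the hypothyroid mean, a range that overlaps that of the 10. The thyrotroph markers together summed to 9915-18710 CPM in hypothyroid wild type and to 9358-11871 CPM in hypothyroid Thrb-KO.

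**Figure D2:**
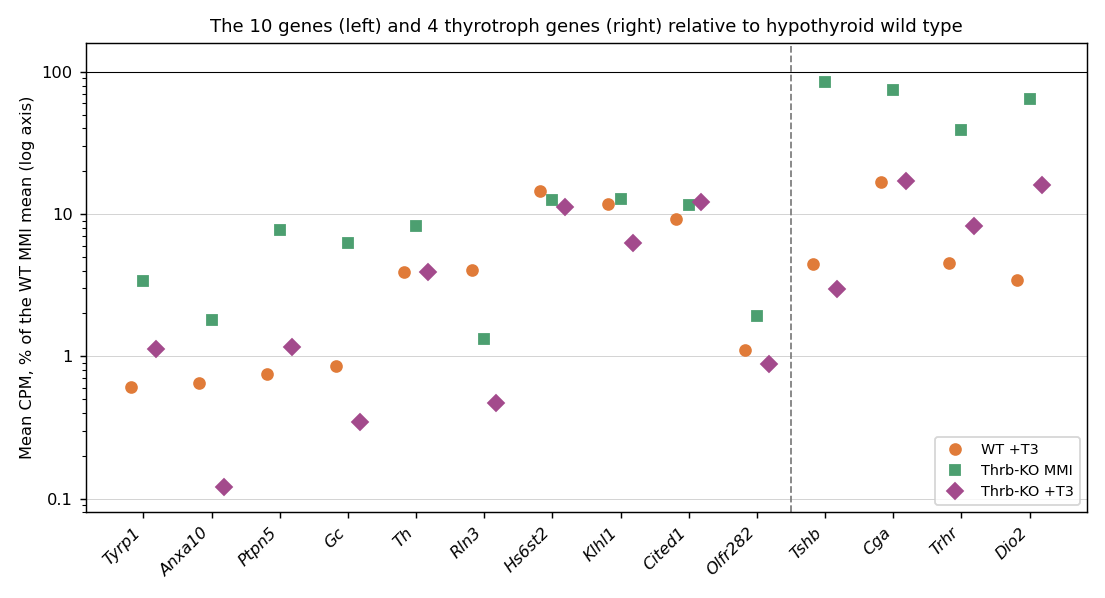
Mean level in the other 3 groups as a percent of the hypothyroid wild-type mean (log axis) for the 10 genes, left of the dashed line, and for 4 thyrotroph genes, right of it. In hypothyroid Thrb-KO (green squares) the 10 genes stand at 1.31-12.8% and the thyrotroph genes at 38.6-84.5%, a gap fixed by the choice of the 10.

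Marker genes of other cell types were read in the same libraries. Growth hormone (Gh, somatotrophs) and prolactin (Prl, lactotrophs), which hold a large share of all reads, rose with T3 in wild type, Gh from a median of 54377 to 108220 CPM (adjusted p = 0.0017) and Prl from 7405 to 21254 CPM (adjusted p = 4.4e-04). In hypothyroid Thrb-KO their medians were 70320 and 5161 CPM (adjusted p = 0.58 and 0.38 against hypothyroid wild type), and their part in the levels of the 10 genes was not tested. Avp and Oxt, hormones of hypothalamic neurons that reach the posterior lobe, summed to 3.08-3.56 CPM in hypothyroid wild type and to 1.70-4.65 CPM in hypothyroid Thrb-KO, overlapping ranges. The 5 immune markers summed to 51.5-56.2 CPM in hypothyroid wild type, 34.1-57.2 in hyperthyroid wild type, 30.0-36.4 in hypothyroid Thrb-KO and 29.8-36.9 in hyperthyroid Thrb-KO, and Csf1r of macrophages was called lower in hypothyroid Thrb-KO (limma, adjusted p = 6.0e-04). Of the 3 immune markers tested, edgeR and DESeq2 called all 3. The part of immune cells in the pattern of the 10 genes was not tested. Of the corticotroph and melanotroph markers, Pcsk2, a prohormone convertase, was the 1 called between genotypes in hypothyroid mice (404.6 CPM in wild type and 253.5 CPM in Thrb-KO, log2 difference -0.68, adjusted p = 0.0095).

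The 4 hypothyroid wild-type libraries were not alike for these genes. In 9 of the 10 the mean of replicates 3 and 4 exceeded that of replicates 1 and 2, by 1.16-fold (Anxa10) to 2.48-fold (Gc), and Ptpn5 was the exception at 0.910. Rln3, Klhl1, Olfr282 and Cited1 differed by 2.13, 2.13, 1.99 and 1.96-fold. Tshb and Cga rose alongside, by 1.98 and 1.63-fold, while Trhr stood at 0.987. Across all genes, deviations from the group means ran opposite between replicates 1 and 2 and the later replicates (r from -0.765 to -0.255 over 60 pairs of libraries), and what set them apart is not given in the sources used here.

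Comparisons between groups other than hypothyroid wild type were tested, with 2 reservations. The rule also asked for a low level in the groups compared, and the fit took its spread from all groups, hypothyroid wild type included. The first comparison asked whether T3 lowered the genes further when TRβ was missing. In 7 of the 10 genes (Tyrp1, Anxa10, Ptpn5, Gc, Th, Rln3 and Klhl1) all 5 hypothyroid Thrb-KO libraries lay above all 5 hyperthyroid Thrb-KO libraries (3.76% of all genes tested), and in 0 of the 10 was the order the opposite (2.25% of all genes). These counts and the calls that follow are a description, since the rule used the hypothyroid Thrb-KO level, and a share above that of all genes is no independent result. Anxa10 held 22 reads or fewer in every library of either group. The log2 differences ranged from -1.03 to 0.03 with a median of -0.38 (all genes, -0.01), and 9 were below 0. By limma, 2 of the 10 were called lower (0.767% of all genes were): Ptpn5 by -1.03 ± 0.15 (adjusted p = 3.5e-04) and Th by -0.61 ± 0.15 (adjusted p = 0.029). With the replicate number as a block 3 were called, Gc being added (log2 difference -0.75, adjusted p = 0.045). The same 3 were called when only the 2 groups compared were fitted. Gc passed the filter only with the hypothyroid wild-type libraries. Ptpn5 was called under all 29 alternatives, whereas Th lost its call in 9 of 28 (adjusted p = 0.0020 to 0.089), among them the removal of any of 8 single libraries.

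In absolute terms these changes were small beside the wild-type response, a contrast fixed by the choice of genes low in hypothyroid Thrb-KO. Ptpn5 went from 1.63 ± 0.912 to 0.245 ± 0.0941 CPM (SD, n = 5) in Thrb-KO and from 21.2 ± 1.53 to 0.160 ± 0.0945 CPM (n = 4) in wild type. Th went from 1.81 ± 0.219 to 0.856 ± 0.339 CPM in Thrb-KO, and Gc from 0.820 ± 0.604 to 0.0458 ± 0.0336 CPM. The scale log2(CPM + 1) understates the fold change of levels this low. The difference between the T3 responses of the genotypes ranged from 1.57 (Klhl1) to 4.37 (Tyrp1) on the log2 scale, given with no test because it rests on the hypothyroid wild-type libraries.

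Hypothyroid Thrb-KO was next compared with hyperthyroid wild type, the low groups of the 2 genotypes. The rule asked for a low level in both, so the counts and calls here describe the chosen genes and are not independent of that choice. In 4 of the 10 genes (Tyrp1, Ptpn5, Gc and Th) all hypothyroid Thrb-KO libraries lay above all hyperthyroid wild-type libraries, against 12.6% of all genes. By limma 3 were called higher in hypothyroid Thrb-KO (5.13% of all genes were, with 4.05% lower and 9.18% in either direction): Ptpn5 by 1.13 ± 0.16 (adjusted p = 3.5e-05), Tyrp1 by 0.84 ± 0.24 (adjusted p = 0.015) and Th by 0.60 ± 0.15 (adjusted p = 0.0084). Without replicate 5 of hypothyroid Thrb-KO, which read highest for Tyrp1, the Tyrp1 difference was 0.61 (adjusted p = 0.027). Tyrp1 passed the filter only with the hypothyroid wild-type libraries. Tyrp1 lost its call in replicates 3 to 5 alone (0.79, adjusted p = 0.052), where Rln3 was called lower in hypothyroid Thrb-KO (-0.90, adjusted p = 0.025). The Th call, which sat near the 1.5-fold limit, was lost in 8 of 28 alternatives. The remaining 7 genes ranged from -0.38 (Rln3) to 0.67 (Gc) with overlapping libraries except for Gc.

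By the median, the log2 differences were smallest between the hyperthyroid groups, but log2(CPM + 1) flattens differences at the low levels most genes had there. Between hyperthyroid Thrb-KO and hyperthyroid wild type the log2 differences ranged from -0.57 (Rln3) to 0.23 (Tyrp1), with a median of -0.05 against 0.06 for all genes. By limma 0 of the 10 were called, and 0 had an unadjusted p under 0.05, against 5.65% of all genes called. At that share, 0 of 10 does not set these genes apart. Anxa10 and Olfr282 passed the filter through hypothyroid wild type alone, and on log2(CPM + 1) their few reads left little room for a call. Tyrp1, Gc, Rln3 and Klhl1 passed it only with those libraries, and were also low here. In hyperthyroid wild type and hyperthyroid Thrb-KO, Rln3 averaged 0.735 and 0.0847 CPM, and Tyrp1 0.238 and 0.440 CPM. Hyperthyroid Thrb-KO libraries all lay below hyperthyroid wild type in 1 gene, Klhl1 (4.24% of all genes), and all above in 0 (7.73%). On recovered reads edgeR called Rln3 lower in Thrb-KO (log2 difference -3.05, adjusted p = 0.019), and DESeq2 called Rln3 and Anxa10, the latter on 4 reads in the 5 hyperthyroid Thrb-KO libraries together. The Rln3 difference rests on hyperthyroid wild-type replicates 3 and 4 (0.852 and 1.83 CPM), since replicates 1 and 2 read 0.202 and 0.055 CPM, the first just above and the second within the Thrb-KO range of 0.0466-0.163 CPM.

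**Figure D3:**
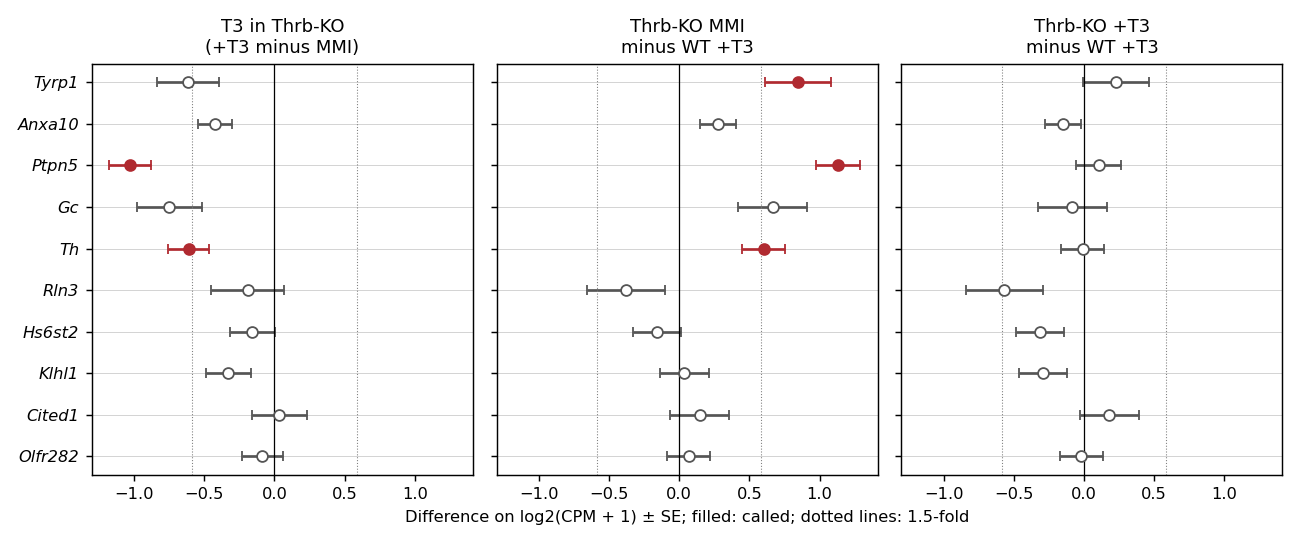
Difference on log2(CPM + 1) with its standard error (bars) for each gene in the 3 comparisons between groups other than hypothyroid wild type, whose libraries still entered the shared spread. Filled points passed an adjusted p under 0.05 and 1.5-fold (dotted lines). Ptpn5 and Th were called in the left and middle panels, Tyrp1 in the middle panel, and 0 genes in the right panel.

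The genes most like each member over the 18 libraries were read from the correlation of log2(CPM + 1), a description that hypothyroid wild type dominates. Tyrp1 was most like Creb3l1 (r = 0.99), a transcription factor of secretory cells anchored in the endoplasmic reticulum, which also led the list for Th (r = 0.99). Creb3l1 averaged 169.5 ± 30.1 CPM (SD, n = 4) in hypothyroid wild type, 17.8 ± 1.52 in hyperthyroid wild type, 27.7 ± 3.71 (n = 5) in hypothyroid Thrb-KO and 21.5 ± 2.84 in hyperthyroid Thrb-KO. Anxa10 was most like Tmprss11e, an epithelial serine protease (3.51, 0.0641, 0.120 and 0.0141 CPM in the same order, r = 0.99), and Rln3 was most like Cartpt, a neuropeptide precursor (16.8, 1.28, 0.759 and 0.573 CPM, r = 0.98). Gc was most like Il34, a ligand of the receptor Csf1r (14.1, 1.68, 3.07 and 1.47 CPM, r = 0.99), Ptpn5 most like the sorting receptor Sorcs3 (r = 0.98), and Cited1 most like Hs3st2 (r = 0.98). Hs6st2, Olfr282 and Klhl1 were most like other members, Hs6st2 and Olfr282 each other (r = 0.99) and Klhl1 like Gc (r = 0.98).

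Among the members themselves the 45 pairs had r from 0.906 (Ptpn5 and Rln3) to 0.989 (Tyrp1 and Gc) over the 18 libraries. Over the 14 libraries outside hypothyroid wild type, r ranged from -0.381 (Rln3 and Olfr282) to 0.966 (Ptpn5 and Gc), with a median of 0.312. The r of Ptpn5 and Gc, the highest of the 45 pairs, pools the low groups, and both genes were highest there in replicate 5 of hypothyroid Thrb-KO. For both genes all hypothyroid Thrb-KO libraries lay above the T3-treated libraries, so r holds that group difference. Whether they vary together within a group was not tested. Ranked by the drop from the hypothyroid wild-type mean to the highest other group mean, the 10 genes held ranks 1 to 5, 7 to 9, 12 and 19 of all genes. The genes between them included Cartpt (rank 6), Creb3l1 (10), Fxyd5, a regulator of the sodium pump (11), the lipase Liph (13), Hs3st2 (14), Cgref1 (15), the cyclooxygenase Ptgs2 (16), Tmprss11e (17) and Luzp2 (18), with Il34 just below Klhl1 at rank 20. No threshold therefore separates the 10 genes from these others.

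Few TRβ peaks of the untreated pituitary lay near the genes, though 10 genes give only a small count. Within 20 kb of the gene body, a distance the study also uses, 1 of the 10 genes (Olfr282) had a peak in the untreated pituitary TRβ list of 8051 peaks, against 40.0% of 14014 tested genes placed on mm9. Among genes that fell with T3 in wild type the share was 35.1% and among genes that rose 70.5%. Within 100 kb, 4 of the 10 genes had such a peak, against 69.9% of all genes and 63.2% of those that fell. The median distance to the nearest pituitary peak was 124804 bp for the 10 genes and 38629 bp for all genes. For T3-regulated ATAC peaks the order was the other way, 289566 bp for the 10 genes and 479734 bp for all genes. The nearest pituitary peak lay 21973 bp from Rln3 (14 reads in the merged tagged against 1 in the merged control libraries), 73178 bp from Tyrp1, 74018 bp from Ptpn5 and 121639 bp from Anxa10. It lay 127970 bp from Cited1, 345149 bp from Gc and 355768 bp from Th, and 1494568 and 1541380 bp from Hs6st2 and Klhl1. These peaks come from untreated mice, and binding in the hypothyroid and hyperthyroid glands was not analysed here.

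**Figure D4:**
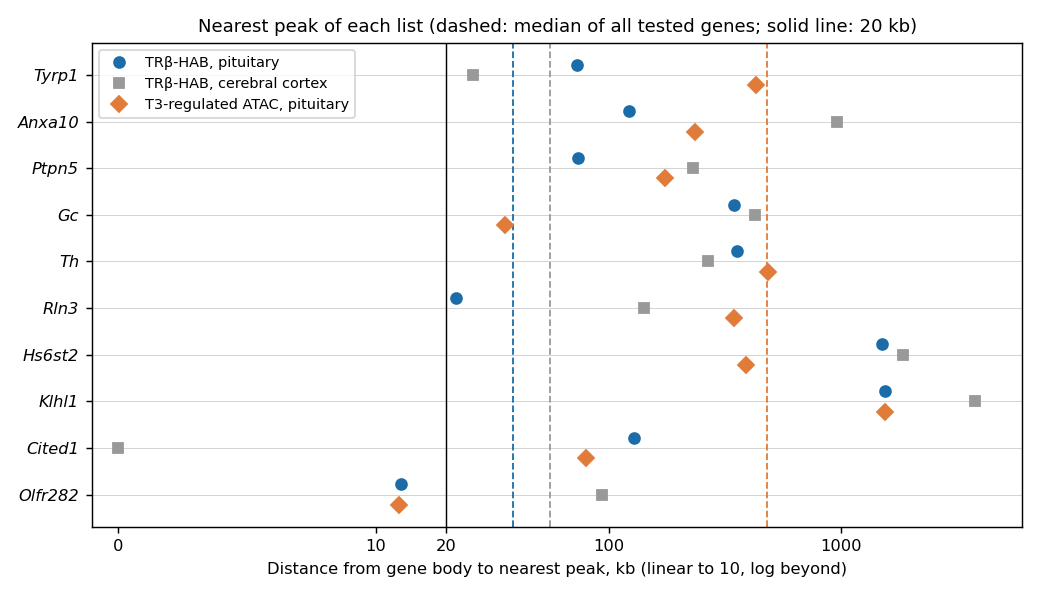
Distance from the gene body to the nearest peak of each list for the 10 genes (kb, linear to 10 and log beyond), with dashed lines at the median of all tested genes for each list and a solid line at 20 kb. Only Olfr282 (pituitary TRβ and ATAC) and Cited1 (cortex TRβ) have a peak left of the solid line.

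Olfr282 was the exception. Its peak at chr15:98254301-98255100 (mm9), 12801 bp upstream and intergenic, held 120 reads in tagged against 11 in control libraries (9.10-fold over control, false discovery rate 6.1e-70). It overlapped a T3-regulated ATAC peak at chr15:98254933-98255379, and the stretch shared by both peaks is shown because it holds a DR4. Of the pituitary TRβ peaks searched around the 10 genes, 1 other held one, a peak 79818 bp from Ptpn5 in a coding exon of Spty2d1 (chr7:54253101-54253350, 15 reads in tagged against 2 in control libraries), with the repeat TGGTCGtcgaAGGTCA matching at 10 of 12 bases. The repeat beside Olfr282, AGTTCAcggaGGGTCA on the minus strand at chr15:98254960-98254975, matched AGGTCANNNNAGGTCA at 10 of 12 bases and appears below as its reverse complement, with the hexamers in capitals (chr15:98254933-98255100, plus strand, mm9). A DR4 with at most 2 mismatches, on either strand, occurred in 20.9% of the pituitary TRβ peaks, 9.30% of the cortex TRβ peaks and 30.9% of the ATAC peaks.
Olfr282 shared stretch: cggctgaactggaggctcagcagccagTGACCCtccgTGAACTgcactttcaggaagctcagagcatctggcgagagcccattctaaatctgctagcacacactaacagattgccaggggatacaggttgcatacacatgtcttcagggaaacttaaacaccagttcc

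Of T3-regulated ATAC peaks, 1 of the 10 genes (Olfr282) had one within 20 kb, against 7.64% of all genes. The next nearest lay 35877 bp downstream of Gc at chr5:89810409-89810672 (264 bp, intergenic), and it is shown because it holds a DR4, AGGGCAaatgAGGTGA on the minus strand at chr5:89810547-89810562 (10 of 12 bases), printed as the reverse complement in capitals. The pituitary TRβ peak nearest to Klhl1, 1541380 bp away in an intron of Dach1, had 49 reads in tagged and 0 in control libraries, and it coincided with an ATAC peak. The ATAC list gives no direction of change, so whether these sites opened or closed with T3 was not read.
Gc ATAC peak: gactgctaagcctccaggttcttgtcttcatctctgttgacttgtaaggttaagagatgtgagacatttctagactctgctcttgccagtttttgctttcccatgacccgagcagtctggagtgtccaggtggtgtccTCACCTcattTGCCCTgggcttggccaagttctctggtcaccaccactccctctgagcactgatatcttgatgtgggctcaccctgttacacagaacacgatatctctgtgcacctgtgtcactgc

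In cerebral cortex, 1 of the 10 genes (Cited1) had a TRβ peak within 20 kb, against 33.6% of all genes. It lay across the Cited1 start at chrX:99447451-99447650 (mm9), with 11 reads in tagged and 0 in control libraries, and had no counterpart in the pituitary list, where the nearest peak was 127970 bp away. The part of this peak upstream of the gene is shown because it is the 1 receptor peak at a member's start, and it holds no DR4 (chrX:99447521-99447650, plus strand).
Cited1 cortex peak, upstream part: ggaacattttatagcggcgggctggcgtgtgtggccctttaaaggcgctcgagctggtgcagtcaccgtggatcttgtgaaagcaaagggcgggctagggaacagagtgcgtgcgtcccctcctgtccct

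The promoters of the 10 genes shared little by sequence. RefSeq lists 14 starts for them (GRCm38.p6), and over the 250 bases before each, on both strands, the hexamer AGGTCA was found for 4 genes (Tyrp1, Rln3, Hs6st2 and Cited1) against 15.8% of 27025 genes. The DR4 with at most 2 mismatches was found for 0 of the 10 against 2.96% of genes. The AP-1 motif TGANTCA was found for Anxa10 and Th (7.82% of genes), AGATAA for Tyrp1 and Rln3 (11.4%), and TGACGTCA for Th (1.77%). Ptpn5, Gc, Klhl1 and Olfr282 held none of these motifs. The listed start of Olfr282 is the start of its coding exon, so its window may lie inside an unannotated transcript.

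Of the 20 nearest tested neighbours, 1 on each side of a gene, 5 were called with T3 in wild type and 1 between genotypes in hypothyroid mice, beside 10.4% and 3.54% of all genes. Spock3, a testican proteoglycan 827891 bp from Anxa10, was the 1 called lower both with T3 in wild type (4.71 to 2.68 CPM, log2 difference -0.64, adjusted p = 5.8e-04) and in hypothyroid Thrb-KO (2.48 CPM, log2 difference -0.71, adjusted p = 3.7e-04), as were 1.46% of all genes. Ddx60, 19341 bp from Anxa10, and Zfp641, 141340 bp from Olfr282, rose with T3 in wild type (log2 differences 1.27 and 0.93, adjusted p = 3.4e-04 and 4.8e-06). Rfx1, a transcription factor gene 21857 bp from Rln3, fell (log2 difference -0.59, adjusted p = 0.0022), a call that edgeR and DESeq2 did not make. Gpc4, beside Hs6st2, was the remaining neighbour called with T3. Tmem86a, the nearest neighbour of Ptpn5, averaged 15.8 CPM in hypothyroid and in hyperthyroid wild type.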

How the data were processed

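RNA-seq was measured in 18 pituitary libraries. Single-end reads were mapped by the authors to RefSeq mouse transcripts of build mm9 with BBMap, and the deposited table gives CPM per transcript (29082 transcripts, 22835 genes). The CPM were whole multiples of 1 read in every library (100% of values within 0.02 reads), so reads were recovered for count tests. The deposited peak lists, called by the authors with SICER 1.1 on merged libraries of tagged against control mice, give read counts in each peak, the fold ratio over control and a false discovery rate, an adjusted p-value. The deposited ATAC list holds peaks called with MACS2 and compared with edgeR by the authors, with an adjusted p-value and no direction. Other libraries of the series' 70 samples were not used here.

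Per gene, the transcript with the highest mean was kept, and 14472 genes with CPM above 1 in at least 4 libraries were fitted on log2(CPM + 1) with limma 3.58.1 (R 4.3.3), which shares 1 estimate of the spread over the 4 groups. A call needed a Benjamini-Hochberg adjusted p under 0.05 over all genes tested and 1.5-fold. No test is given for the 10 genes in contrasts with hypothyroid wild type, though its libraries entered the shared spread of every limma test. edgeR 4.0.16, DESeq2 1.42.0, other scalings, filters and pseudocounts, and the removal of each library were alternatives. On simulated data with 200 changed genes among 14472, for T3 in Thrb-KO, 94% of 2-fold and 99% of 4-fold changes were recovered with 0 false calls. The simulation gave every gene the same relative spread around its mean over all libraries, with no difference between replicate sets. Its recovery therefore does not apply to genes as low or as variable as the 10.

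The 10 genes, the gene lists and the markers were chosen with earlier results of these data known. Genes named beside them are the list genes called in a contrast (at most 4 a list), the 2 most correlated genes of each member, the 10 other genes with the largest drop, and their neighbours. Labels share replicate numbers across groups. Deviations of same-numbered libraries correlated in each of 25 pairs (r from 0.137 to 0.797), as did those of different numbers within replicates 1 and 2 or within 3 to 5 (0.266 to 0.725), and 4 of 18 libraries correlated best with their own number. Same-numbered libraries were thus no more alike (median r 0.505) than others of the same set (0.51), so the numbers were not shown to be pairs. A fit with the replicate block was made as an alternative. Libraries were made with 1 of 2 kits, and which kit made which library is not given in the sources used here. Libraries are pools of 3 glands, and nothing says that pools share animals. Promoters were read from RefSeq GRCm38.p6 and peaks from mm9, and coordinates were never converted. Counting limits cover counting error only.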

Additional observations from a re-analysis of the deposited data

Results flagged for a closer look

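Of 40 groups of libraries (10 genes in 4 groups), 4 held a library set apart from its group by Dixon's test, which chance alone flags in about 1 group in 20. In 3 of them the library was replicate 5 of hypothyroid Thrb-KO. Tyrp1 read 3.17 CPM there against 0.785-0.957 in the other 4 libraries, Ptpn5 3.23 against 0.949-1.48, and Gc 1.89 against 0.393-0.624. Relative to the mean of the other 4 libraries, Tyrp1, Gc and Ptpn5 stood at 3.64, 3.41 and 2.62-fold, and Klhl1 and Olfr282 at 1.92 and 1.88-fold, while Th, Hs6st2 and Cited1 stood at 1.08, 1.09 and 0.977-fold. In the same library Tshb stood at 1.34-fold, Cga at 1.02-fold and Dio2 at 0.879-fold. The cause was not tested. Without this library the T3 effect on Ptpn5 in Thrb-KO was -0.84 on the log2 scale (adjusted p = 2.5e-05). The other flagged value was Anxa10 in replicate 3 of hypothyroid wild type, 27.7 CPM against 19.6-20.8 in the other 3 libraries.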

How the results depend on the processing

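Of the comparisons between groups other than hypothyroid wild type, the T3 effect in Thrb-KO called 2 of the 10 genes. Fitting only the 2 groups compared called 3 (Gc added). edgeR, DESeq2 and a pseudocount of 0.25 each called 4 (Gc and Anxa10 added). Anxa10 held 4 reads in hyperthyroid Thrb-KO and passed the filter through hypothyroid wild type alone, so its call carries little weight. Gc also passed the filter only with the hypothyroid wild-type libraries. No filter on low values called 1, and a filter of CPM above 1 in all libraries called 0, since 1 of the 10 genes then remained. Leaving out 1 library gave 1 to 2, Th being lost without hypothyroid Thrb-KO replicate 1, 3, 4 or 5 or hyperthyroid Thrb-KO replicate 1, 2, 4 or 5. The replicate block gave 3 (Gc added) and changed no call of the 10 genes in the other comparisons. For the hyperthyroid groups (0 genes), edgeR called 1, DESeq2 2 and replicates 3 to 5 alone 1 (Rln3, -1.10 on the log2 scale, adjusted p = 0.017), and the count stayed at 0 without each library. For hypothyroid Thrb-KO against hyperthyroid wild type (3 genes), DESeq2 called 5 (Gc and Anxa10 added) and the filter on all libraries called 0. Fitting only the 2 groups compared called 4 (Gc added). Leaving out libraries gave 2 to 4 (Gc added without hypothyroid wild-type replicate 1 or 4). Th lost its call there without hyperthyroid wild-type replicate 2, 3 or 4 or hypothyroid Thrb-KO replicate 3 or 4, after TMM scaling, with the library set (replicates 1 and 2 against 3 to 5) as a term (0.58) and in replicates 1 and 2 alone (0.37, adjusted p = 0.074). TMM turned the split of all genes called in this contrast from 743 higher and 586 lower to 588 and 730, and between the hyperthyroid groups from 409 and 408 to 318 and 486. No called difference changed direction. Of pituitary TRβ peaks (1 gene within 20 kb), 0 genes had one within 5 kb, 2 within 50 kb and 4 within 100 kb, and 0 among peaks with a fold at or over the list median. Of ATAC peaks (1 gene), the counts were 0, 2 and 3 at 5, 50 and 100 kb, and 0 at an adjusted p under 0.001. Over all genes, hypothyroid genotypes differed in 171 higher and 342 lower genes, against 240 and 550 by DESeq2. Replicates 3 to 5 alone called 790 higher and 538 lower genes between the hyperthyroid groups and 1428 and 979 for hypothyroid Thrb-KO against hyperthyroid wild type. The causes were not tested. Levels under 0.0543-0.140 CPM (3 reads) could not be told from 0, which limits Anxa10, Gc and Olfr282 in T3-treated libraries.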
